A study of Homo sapiens with 16 samples.

Results

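The transcripts described here are those of 10 genes that mark or drive the mesenchymal state of neuroblastoma and neural crest cells: PRRX1, VIM, FN1, SNAI2, YAP1, WWTR1, TWIST1, ZEB1, ZEB2 and CD44. They were taken by gene symbol out of a table of 27037 genes in 16 samples. PRRX1 was not analysed here, and the other 9 all passed the filter on low counts. The cells were SK-N-BE(2)C, a human neuroblastoma line with amplified MYCN that is classed as adrenergic. Cells were given the vehicle DMSO, 1 µM palbociclib (PB), 10 µM all-trans retinoic acid (RA) or PB+RA for 5 days, with 4 replicates per group and no other difference between groups in the labels. Palbociclib inhibits the cyclin-dependent kinases CDK4 and CDK6, and retinoic acid acts through nuclear receptors that bind DNA. By the study's methods, biological replicates are separate passages of a line, each plated as its own experiment, and 1 cell line was used throughout.

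Neuroblastoma cells can take an adrenergic, neuron-like state or a mesenchymal state that resembles migrating neural crest. SNAI2, TWIST1, ZEB1 and ZEB2 are DNA-binding factors of the epithelial to mesenchymal transition and of neural crest migration, and PRRX1 can drive the mesenchymal state in neuroblastoma cells. YAP1 and its paralogue WWTR1, which encodes TAZ, are co-activators that the kinases of the Hippo pathway hold out of the nucleus and that act on DNA through the TEAD factors. VIM encodes the intermediate filament vimentin, FN1 the matrix protein fibronectin and CD44 the surface receptor for hyaluronan, and all 3 are widely used markers of mesenchymal cells.

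Libraries held 19515779 to 31620821 counts, and levels are given as CPM, the count scaled to a library total of 1000000. Samples with the same replicate number deviated together in all 24 pairs across groups (Pearson r from 0.330 to 0.573 over genes). The tests reported here have no term for the replicate number, and the value of a fit with that number as a block is given where it changed a call of the 9 genes. Replicates 1 and 2 also lay apart from replicates 3 and 4: 16.7% of the 15415 genes tested had no overlap between these sets of replicates, in 1 direction, in all 4 groups. CD44 and TWIST1 were the members among them. In bulk RNA, fewer cells of a type and less RNA per cell cannot be told apart.

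Most of the 9 genes that PB changed were lower, and those that RA changed were higher. A gene was called when its Benjamini-Hochberg adjusted p was below 0.05 in edgeR's quasi-likelihood test and its absolute log2 fold change was above 0.5. PB against DMSO lowered 5 of the 9 genes (VIM, SNAI2, YAP1, WWTR1 and TWIST1) and raised 1 (CD44), where 11.3% of all genes tested were called lower and 16.9% higher. RA raised 3 (FN1, YAP1 and WWTR1), where 10.8% of all genes were called higher. It lowered 0 of the 9, also at an unadjusted p below 0.05 and with DESeq2 or limma-voom, and 2.54% of all genes were called lower. PB+RA against DMSO raised 1 (FN1) and lowered 3 (VIM, SNAI2 and TWIST1), where 24.0% of genes were called higher and 17.9% lower. The 3 comparisons share the DMSO samples. The median log2 fold change of the 9 genes was -0.51 with PB, 0.18 with RA and -0.13 with PB+RA, beside 0.03, 0.01 and 0.04 over all genes tested.

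**Figure D1:**
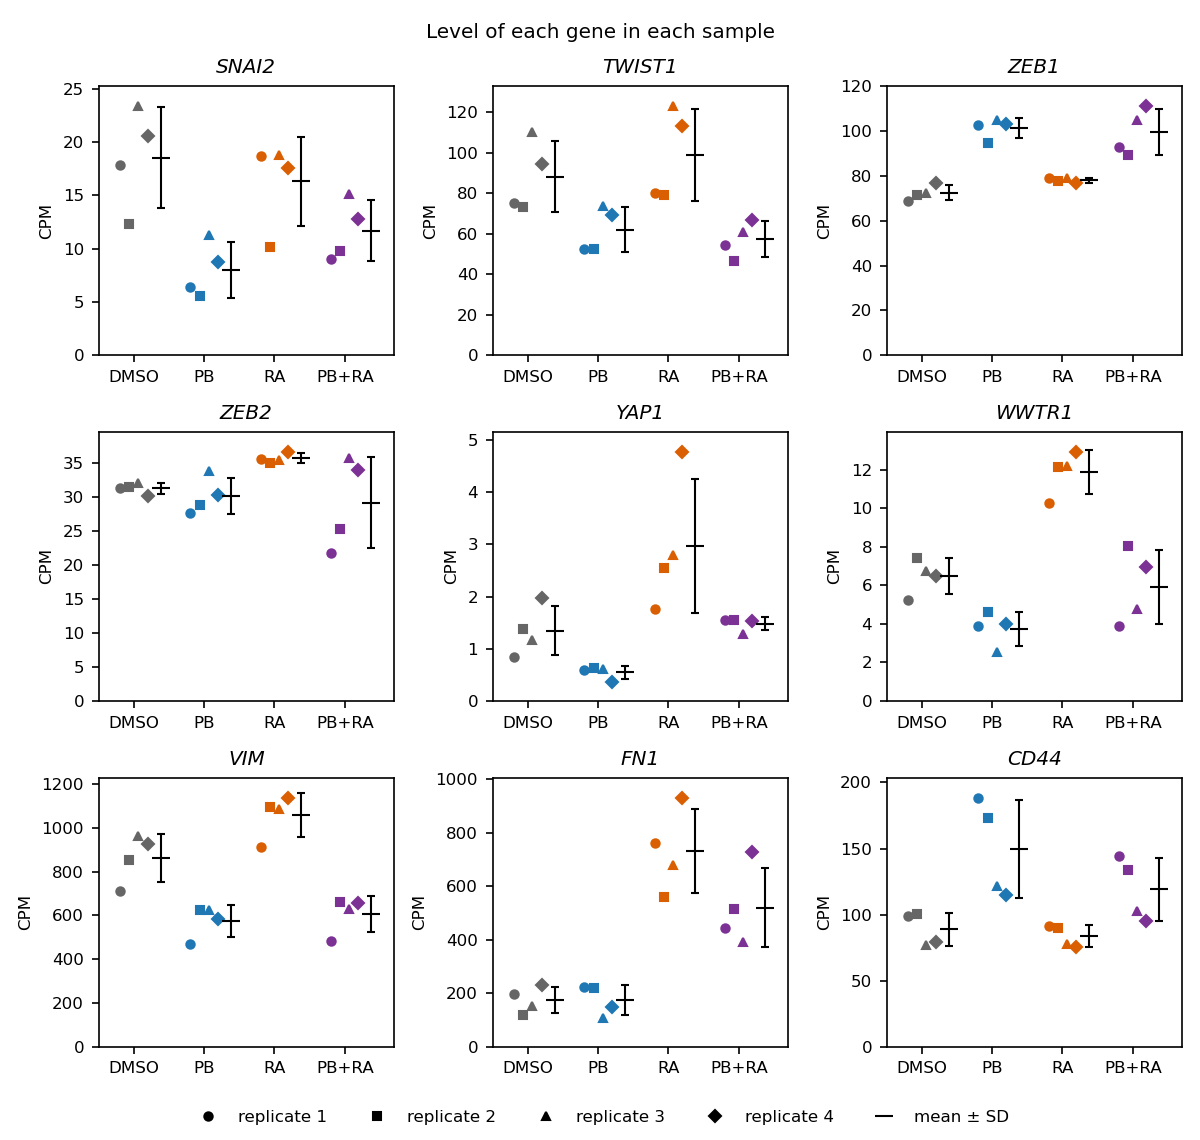
Level of each of the 9 genes in CPM (y axis, linear and from 0) in every sample of the 4 groups (x axis), with a symbol for each replicate number and a bar for the mean ± SD of 4 replicates. YAP1 and WWTR1 were lowest with PB and highest with RA, FN1 was high in both groups given RA, and CD44 was highest with PB.

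Per kilobase of annotated exons, the DMSO cells held most VIM (167 ± 21.5 CPM per kb, SD, n = 4) and then TWIST1 (44.1 ± 8.78). FN1 (10.2 ± 2.87), CD44 (8.90 ± 1.26) and ZEB1 (8.38 ± 0.393) followed and lay within each other's spread. SNAI2 was at 5.65 ± 1.44 and ZEB2 at 1.20 ± 0.0300. WWTR1 (0.776 ± 0.109) and YAP1 (0.213 ± 0.0750) were lowest, so the co-activators of the Hippo pathway were the rarest of these transcripts in the untreated cells. With RA, FN1 came to 42.6 ± 9.09 CPM per kb, within the spread of TWIST1 at 49.5 ± 11.3.

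The start sites of 4 of these genes are shown because YAP1 and WWTR1 both fell with PB and rose with RA, FN1 had the largest rise of the 9 with RA, and CD44 was the gene called higher with PB. Each window runs from 250 bases before to 50 bases after an annotated start and is read along the gene (RefSeq, GRCh38.p14): YAP1 chr11:102110197-102110496 on the plus strand, WWTR1 chr3:149657976-149658275 on the minus strand, FN1 chr2:215436019-215436318 on the minus strand and CD44 chr11:35138921-35139220 on the plus strand. Capitals mark 6-letter matches, on either strand, to the TEAD site CATTCC, the retinoic acid receptor half-site AGGTCA or the E-box CAGGTG that ZEB and SNAI factors bind. None of these 3 motifs overlaps another in the windows shown.
YAP1: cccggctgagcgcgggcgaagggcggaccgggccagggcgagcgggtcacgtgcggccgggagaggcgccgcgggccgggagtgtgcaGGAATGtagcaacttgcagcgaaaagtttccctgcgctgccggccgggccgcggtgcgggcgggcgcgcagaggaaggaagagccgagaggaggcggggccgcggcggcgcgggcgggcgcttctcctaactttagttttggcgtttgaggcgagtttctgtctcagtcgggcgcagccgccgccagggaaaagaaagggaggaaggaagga
WWTR1: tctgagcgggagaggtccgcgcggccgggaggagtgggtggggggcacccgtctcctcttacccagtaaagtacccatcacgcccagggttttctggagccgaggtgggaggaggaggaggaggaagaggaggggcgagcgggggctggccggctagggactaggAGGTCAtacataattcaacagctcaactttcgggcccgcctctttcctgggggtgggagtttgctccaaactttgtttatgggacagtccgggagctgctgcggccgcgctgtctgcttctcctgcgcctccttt
FN1: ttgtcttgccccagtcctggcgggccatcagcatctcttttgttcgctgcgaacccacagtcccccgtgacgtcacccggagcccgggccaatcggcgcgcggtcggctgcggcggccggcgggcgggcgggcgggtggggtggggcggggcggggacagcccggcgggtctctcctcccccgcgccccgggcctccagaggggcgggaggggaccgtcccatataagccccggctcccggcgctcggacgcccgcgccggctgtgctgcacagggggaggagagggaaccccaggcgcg
CD44: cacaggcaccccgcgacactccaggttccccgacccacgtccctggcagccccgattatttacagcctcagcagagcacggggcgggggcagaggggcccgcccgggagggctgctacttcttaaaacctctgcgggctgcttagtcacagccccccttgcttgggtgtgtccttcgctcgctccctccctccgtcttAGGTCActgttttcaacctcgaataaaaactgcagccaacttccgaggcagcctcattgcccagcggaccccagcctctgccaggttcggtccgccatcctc

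The YAP1 window held 1 TEAD match, GGAATG, whose first base lay 162 bases before the start. WWTR1 has 2 windows in the table. The one shown held 1 retinoic acid receptor half-site that began 85 bases before the start, and the other, at chr3:149703224-149703523, held 0 matches. The CD44 window held 1 half-site that began 52 bases before the start. The FN1 window held none of the 3 motifs. Over all 35116 promoter windows of this length, 14.03% held the TEAD site, 13.8% the half-site and 20.6% the E-box. Windows were read for 8 of the 10 genes, 15 windows in all, and the 8 include PRRX1, whose level was not analysed. Windows on chr8 were not read, which left out SNAI2, and TWIST1 had no window. These matches are a description of letters, and no binding was measured.

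YAP1 (ENSG00000137693, GRCh37 chr11:101981178-102104155, plus strand) was scarce and moved in opposite directions with the 2 agents. In DMSO replicates 1 to 4 it was at 0.851, 1.39, 1.17 and 1.97 CPM, and with PB at 0.601, 0.629, 0.618 and 0.362 CPM. With RA it was at 1.76, 2.55, 2.79 and 4.78 CPM, and with PB+RA at 1.55, 1.55, 1.29 and 1.54 CPM. All PB samples lay below all DMSO samples, the RA samples overlapped DMSO by 1 sample, and the PB+RA samples fell inside the DMSO range. The counts behind these levels were small, from 8 to 14 reads with PB and from 43 to 106 with RA. YAP1 fell with PB by 1.27 on the log2 scale (SE 0.33, adjusted p = 0.00394) and rose with RA by 1.13 ± 0.28 (SE, adjusted p = 0.00501). PB+RA against DMSO was 0.12 ± 0.29 (adjusted p = 0.734).

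WWTR1 (ENSG00000018408, chr3:149235022-149454501, minus strand) had the same direction in both single treatments. DMSO replicates 1 to 4 were at 5.25, 7.42, 6.77 and 6.50 CPM, and PB replicates at 3.90, 4.60, 2.52 and 3.98 CPM. RA replicates were at 10.3, 12.1, 12.2 and 12.9 CPM, and PB+RA replicates at 3.90, 8.01, 4.77 and 6.97 CPM. PB lay wholly below DMSO and RA wholly above it, and PB+RA was spread over a range that reached below and above that of DMSO. WWTR1 fell with PB by 0.79 on the log2 scale (SE 0.21, adjusted p = 0.00439) and rose with RA by 0.87 ± 0.20 (adjusted p = 0.00301). PB+RA against DMSO was -0.17 ± 0.20 (adjusted p = 0.483).

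Against its own single agents, the combination held both co-activators between the 2. PB+RA was above PB for YAP1 (log2 1.39 ± 0.33, adjusted p = 0.00369) and WWTR1 (0.62 ± 0.21, adjusted p = 0.0287), and below RA for YAP1 (-1.01 ± 0.28, adjusted p = 0.00591) and WWTR1 (-1.03 ± 0.20, adjusted p = 0.000363). In replicates 1 and 2 alone YAP1 was at -0.48 against RA and was not called (adjusted p = 0.206). The interaction is how far the log2 change with both agents exceeds the single changes added together. It was 0.26 ± 0.43 for YAP1 and -0.24 ± 0.29 for WWTR1, and neither passed the test. The call of WWTR1 above PB was lost without PB replicate 1 or 3 or PB+RA replicate 2 or 4. Over all samples left out in turn, that difference ranged from 0.44 to 0.78. The call was also lost with limma-voom (0.57, adjusted p = 0.0594) and in replicates 1 and 2 alone (0.47, adjusted p = 0.336). In replicates 1 and 2 alone YAP1 with PB was -0.86 (adjusted p = 0.0806) and WWTR1 -0.58 (adjusted p = 0.178), and in replicates 3 and 4 alone -1.69 (adjusted p = 0.00337) and -1.06 (adjusted p = 0.000376). WWTR1 with RA was 0.82 in replicates 1 and 2 alone (adjusted p = 0.0860).

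Of 16 other genes of the Hippo pathway, 15 were tested. PB lowered 6 of them (STK3, SAV1, MOB1A, TEAD2, TEAD3 and TEAD4) and raised 1, WWC1, beside 11.3% lower and 16.9% higher over all genes tested. RA raised LATS2, TEAD3 and TEAD4 and lowered 0 in edgeR, DESeq2 or limma-voom, with 2 lower at an unadjusted p below 0.05 (10.8% higher and 2.54% lower over all genes). With the replicate block TEAD2 was also called higher with RA (log2 0.69, adjusted p = 1.5e-05). PB+RA raised 2 (LATS2 and WWC1) and lowered 4 (STK3, MOB1A, TEAD2 and TEAD4), beside 24.0% and 17.9%. Some of these calls rest on few samples. The RA call of TEAD4 was lost without DMSO replicate 3 or 4 or RA replicate 1, 2 or 3, and that of TEAD3 without RA replicate 4, and both were lost in replicates 1 and 2 alone. With PB, the call of SAV1 was lost without DMSO replicate 3 or PB replicate 1 or 2 and with the correction for GC content and length, and that of TEAD3 without PB replicate 1. With PB+RA, LATS2 was at 0.39 in replicates 1 and 2 alone (adjusted p = 0.374) and WWC1 at 0.70 without PB+RA replicate 2 (adjusted p = 0.0560). The medians of the 15 were -0.29 with PB, 0.10 with RA and -0.35 with PB+RA. STK3, which encodes the kinase MST2 at the head of the pathway, fell with PB from 16.3 ± 1.11 to 6.90 ± 0.590 CPM (SD, n = 4). TEAD2 fell from 29.5 ± 8.55 to 8.19 ± 3.78 CPM with PB, a log2 change of -1.85 ± 0.38 (SE, adjusted p = 0.000915). TEAD1 was at 127 ± 8.36 CPM in DMSO and 144 ± 13.4 with PB, and was not called. LATS2, a kinase that phosphorylates YAP1 and TAZ, rose with RA from 0.566 ± 0.175 to 2.29 ± 0.586 CPM (log2 2.02, adjusted p = 3.79e-05).

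Of a list of 21 targets of YAP1 and TAZ, 20 were tested. PB raised 7 and left 13 not called, where 16.9% of all genes tested were called higher. RA raised 12 (10.8% of all genes), and PB+RA raised 11 (24.0%) and lowered 1 (F3, the coagulation tissue factor, under 1 CPM in every group). With PB and with RA edgeR, DESeq2 and limma-voom called 0 lower, where 2 and 0 were lower at an unadjusted p below 0.05. The medians of the 20 were 0.31, 0.91 and 0.69 on the log2 scale. CCN2, which encodes the matricellular protein CTGF, was at 3.34 ± 1.14 CPM in DMSO, 5.58 ± 1.10 with PB, 10.7 ± 4.69 with RA and 12.7 ± 3.03 with PB+RA. ANKRD1 and MYOF had the largest rises with PB+RA, by 2.84 ± 0.54 and 2.82 ± 0.38. Of the 20, PB called 8 higher and 0 lower in replicates 1 and 2 alone, and 3 higher and 3 lower in replicates 3 and 4 alone. Over all 4 PB replicates, 7 targets were called higher while YAP1, WWTR1 and 3 of the 4 TEAD genes were called lower. YAP1 and WWTR1 were not called with PB in replicates 1 and 2 alone (edgeR adjusted p = 0.0806 and 0.178). Both were called lower in replicates 3 and 4 alone.

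**Figure D2:**
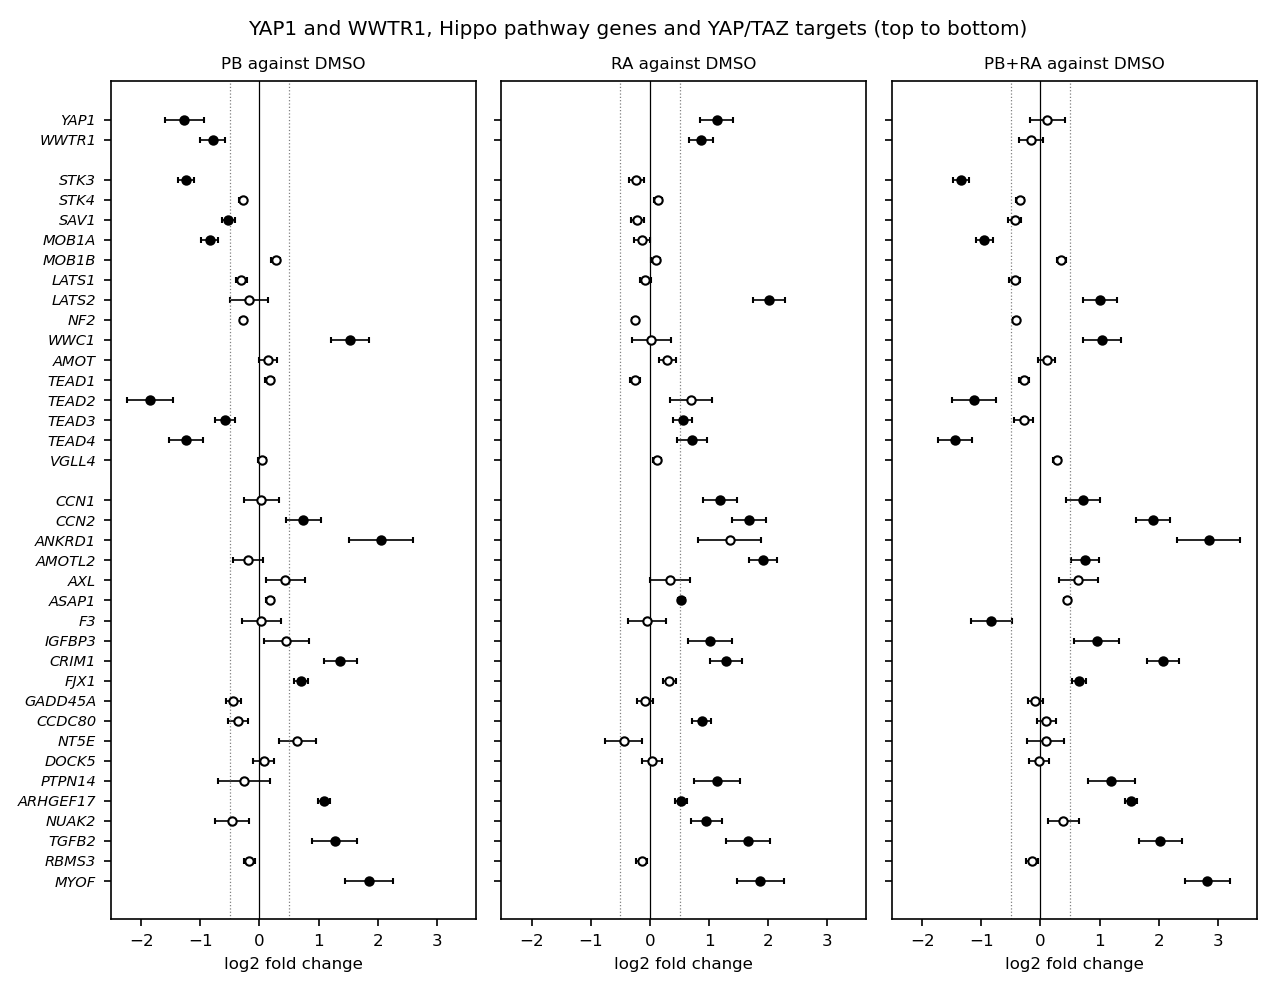
Fitted log2 fold change against DMSO (x axis, the same scale in each panel) with PB, RA and PB+RA for YAP1 and WWTR1 (top), 15 Hippo pathway genes (middle) and 20 YAP/TAZ targets (bottom); bars are SE, filled points were called and dotted lines mark the fold minimum of 0.5. With PB, over all 4 replicates, the co-activators and 3 TEAD genes were called lower and 7 targets were called higher.

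FN1 (ENSG00000115414, chr2:216225163-216300796, minus strand) had the largest change of the 9 genes, and it came with RA. DMSO replicates 1 to 4 were at 199, 119, 152 and 231 CPM, and PB replicates at 222, 218, 106 and 149.8 CPM. RA replicates were at 762, 559, 680.3 and 932 CPM, and PB+RA replicates at 444, 514, 391 and 728 CPM. All samples given RA, alone or with PB, lay above all others, while PB and DMSO overlapped. FN1 rose 4.16-fold with RA (log2 2.06 ± 0.27, adjusted p = 5.03e-05) and 2.91-fold with PB+RA (1.54 ± 0.26, adjusted p = 0.000118). PB alone was -0.01 ± 0.26, with 0.46 in replicates 1 and 2 and -0.61 in replicates 3 and 4, neither of which passed. PB+RA was above PB by 1.55 ± 0.27 (adjusted p = 0.000382), and below RA by 0.52 ± 0.26, which did not pass (adjusted p = 0.105) but was called without PB+RA replicate 4 (-0.72, adjusted p = 0.0368).

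CD44 (ENSG00000026508, chr11:35160429-35253949, plus strand) rose with PB. DMSO replicates 1 to 4 were at 99.2, 100.4, 76.9 and 79.2 CPM, and PB replicates at 189, 173, 122 and 115 CPM. RA replicates were at 91.2, 90.2, 77.6 and 75.1 CPM, and PB+RA replicates at 144, 134, 103 and 95.3 CPM. In each of the 4 groups replicates 1 and 2 were above replicates 3 and 4, and every PB sample was above every DMSO sample. CD44 rose 1.68-fold with PB (log2 0.75 ± 0.17, adjusted p = 0.00156), by 0.85 in replicates 1 and 2 and 0.56 in replicates 3 and 4, both called. With RA it was -0.10 ± 0.17, and with PB+RA 0.40 ± 0.17 (adjusted p = 0.0501), under the fold minimum. With the replicate block in edgeR, PB+RA against DMSO was 0.38 ± 0.06 (SE, adjusted p = 4.2e-06), still under the fold minimum and not called. PB+RA did not overlap RA and was 0.49 ± 0.17 above it (adjusted p = 0.0220), just under the fold minimum. The same comparison was called in 11 of 21 alternative fits and thresholds. These included DESeq2, the correction for GC content and length and replicates 1 and 2 alone. They also included the fits without RA replicate 1 or 2 or PB+RA replicate 3 or 4.

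The partners of these 2 proteins, integrins and syndecan for fibronectin and the enzymes and linkers of hyaluronan and CD44, gave 15 tested genes of 18. With PB 2 rose and 3 fell (16.9% and 11.3% of all genes tested), with RA 6 rose and 1 fell (10.8% and 2.54%), and with PB+RA 6 rose and 2 fell (24.0% and 17.9%), with medians of 0.00, 0.44 and 0.28. ITGA3, an integrin chain of laminin receptors, had the largest rise with PB+RA, from 11.1 ± 1.54 to 89.1 ± 6.08 CPM (log2 2.98 ± 0.10). ITGA5, the chain of the classical fibronectin receptor, was at 0.986 ± 0.228 CPM in DMSO and 3.07 ± 1.56 with RA (log2 1.62, adjusted p = 0.00208). HAS3, a hyaluronan synthase, rose with PB+RA from 1.02 ± 0.158 to 5.83 ± 0.830 CPM. ITGA9 fell with PB+RA by 1.74 ± 0.22 and ITGAV by 0.66 ± 0.11. SDC4, a heparan sulfate co-receptor of fibronectin, fell with PB by 1.25 on the log2 scale and was the gene of the list with a called interaction (1.13 ± 0.19, adjusted p = 0.00302), and 2 further genes had one with the replicate block. MSN, the linker of CD44 to actin that mesenchymal cells usually carry, was at 0.152 CPM or less as a group mean, and its relatives EZR and RDX were at 328 and 49.7 CPM in DMSO.

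**Figure D3:**
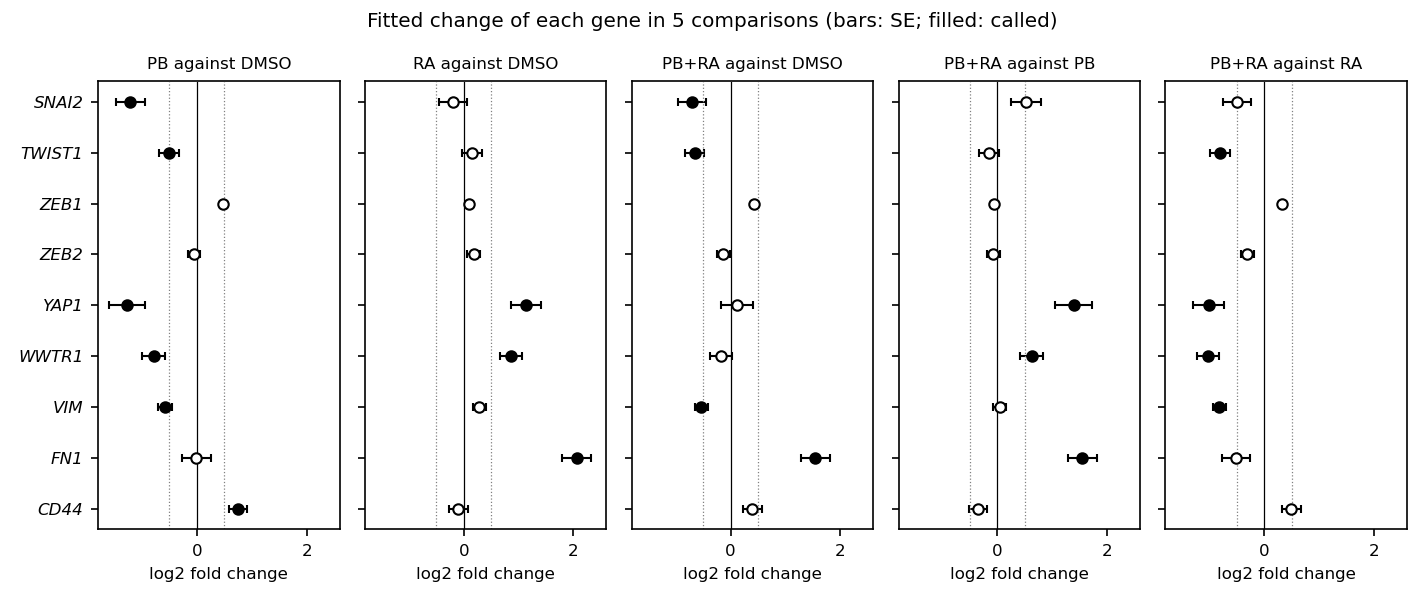
Fitted log2 fold change (x axis) of each of the 9 genes (rows) in 5 comparisons; bars are SE, filled points were called and dotted lines mark the fold minimum of 0.5. FN1 has the point farthest to the right with RA (2.06), and YAP1 (-1.27) and SNAI2 (-1.21) the points farthest to the left with PB.

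VIM (ENSG00000026025, chr10:17270240-17279592, plus strand) had the highest level per kilobase of the 9 genes in DMSO and fell in both groups given PB. DMSO replicates 1 to 4 were at 709, 853, 960.4 and 925 CPM, and RA replicates at 912, 1096, 1085 and 1138 CPM. PB replicates were at 469.5, 624, 625 and 585 CPM, and PB+RA replicates at 483, 659, 628 and 656 CPM. The PB and PB+RA samples lay below all DMSO and RA samples. VIM fell with PB by 0.58 on the log2 scale (SE 0.12, adjusted p = 0.000698) and with PB+RA by 0.54 (SE 0.12, adjusted p = 0.000917), a 1.49-fold and a 1.45-fold decrease. PB+RA was 0.82 ± 0.12 below RA (adjusted p = 2.8e-05) and 0.04 ± 0.12 from PB. RA against DMSO was 0.29 ± 0.12 (adjusted p = 0.0729). The fold was near the minimum, so the PB call was lost without PB replicate 1 (-0.49) and the PB+RA call without DMSO replicate 3 or PB+RA replicate 1 (-0.48 and -0.47). In replicates 1 and 2 alone PB gave -0.52 (adjusted p = 0.115) and in replicates 3 and 4 alone -0.68 (adjusted p = 2.58e-09), and PB+RA was -0.47 in replicates 1 and 2 alone (adjusted p = 0.128).

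SNAI2 (ENSG00000019549, chr8:49830157-49834299, minus strand), which encodes the repressor SLUG, had the deepest fall of the 4 transition factors. DMSO replicates 1 to 4 were at 17.9, 12.3, 23.4 and 20.6 CPM, and PB replicates at 6.35, 5.51, 11.3 and 8.74 CPM. RA replicates were at 18.7, 10.1, 18.8 and 17.5 CPM, and PB+RA replicates at 8.99, 9.79, 15.2 and 12.8 CPM. PB lay below every DMSO sample, while PB+RA and RA both overlapped DMSO. SNAI2 fell 2.32-fold with PB (log2 -1.21 ± 0.26, adjusted p = 0.00114) and 1.62-fold with PB+RA (-0.70 ± 0.26, adjusted p = 0.0263). The PB+RA call did not survive the removal of replicate 3 or 4 of DMSO, or 1 or 2 of PB+RA (-0.85 to -0.56 over all samples left out in turn), nor a correction for GC content and length (-0.52, adjusted p = 0.0666), and in replicates 1 and 2 alone it was -0.71 (adjusted p = 0.0679). RA against DMSO was -0.20 ± 0.25 (adjusted p = 0.583). PB+RA was above PB by 0.52 ± 0.27, which did not pass (adjusted p = 0.141), but with the replicate number as a block it was 0.54 and was called (adjusted p = 0.00165), as it was without PB replicate 3 (0.74, adjusted p = 0.0466). The interaction was 0.71 ± 0.37 (adjusted p = 0.331), and with the block 0.72 and called (adjusted p = 0.00549), so that SNAI2 with PB+RA was then higher than the 2 single changes added together.

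TWIST1 (ENSG00000122691, chr7:19060614-19157259, minus strand), a factor of neural crest migration, also fell in both groups given PB. DMSO replicates 1 to 4 were at 74.9, 73.2, 110.2 and 94.2 CPM, and RA replicates at 79.98, 79.2, 123 and 113 CPM. PB replicates were at 52.6, 52.4, 73.5 and 69.3 CPM, and PB+RA replicates at 54.5, 46.3, 60.9 and 66.9 CPM. PB+RA lay below all DMSO samples, PB and DMSO overlapped across replicate numbers, and within each number PB was lower. TWIST1 fell with PB+RA by 0.65 on the log2 scale (SE 0.18, adjusted p = 0.00468) and lay 0.81 ± 0.18 below RA (adjusted p = 0.00137). With PB the fall was 0.51 (SE 0.18, adjusted p = 0.0260), at the fold minimum, and the call was lost without DMSO replicate 3 or 4 or PB replicate 1 or 2. Over all samples left out in turn, the log2 change with PB ranged from -0.63 to -0.38. The correction for GC content and length also ended the call (-0.46, adjusted p = 0.0571). The fall with PB was called in each set of replicates alone, at -0.51 in replicates 1 and 2 and -0.56 in replicates 3 and 4. RA against DMSO was 0.15 ± 0.18 (adjusted p = 0.532).

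ZEB1 and ZEB2 encode related zinc finger repressors of epithelial genes, and neither passed the fold minimum against DMSO. ZEB1 (ENSG00000148516, chr10:31607424-31818742, plus strand) was at 68.9, 71.4, 72.6 and 77.1 CPM in DMSO and at 103, 94.9, 105 and 103 CPM with PB. It was at 79.0, 77.8, 78.9 and 76.8 CPM with RA and at 93.1, 89.4, 105 and 111 CPM with PB+RA. Both groups given PB lay above all other samples. The log2 difference was 0.49 ± 0.06 with PB (adjusted p = 5.21e-06), 0.43 ± 0.06 with PB+RA (adjusted p = 1.03e-05) and 0.33 ± 0.06 for PB+RA against RA (adjusted p = 0.000236), all under the fold minimum and so not called. The PB difference came to 0.51 and was called with the correction for GC content and length, and also without DMSO replicate 4 or PB replicate 2. ZEB1-AS1, an RNA from the opposite strand that shares 396 of the 8650 exon bases of ZEB1, was at 9.51 ± 0.956 CPM in DMSO and 14.2 ± 0.920 with PB and was called higher (log2 0.58, adjusted p = 3.33e-05). The strand setting of the counts is not given in the sources used here, so reads of the 2 genes may be mixed where they overlap.

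ZEB2 (ENSG00000169554, chr2:145121931-145278624, minus strand) was at 31.3, 31.5, 32.2 and 30.3 CPM in DMSO and at 35.7, 35.1, 35.6 and 36.7 CPM with RA. It was at 27.6, 28.9, 33.8 and 30.4 CPM with PB and at 21.8, 25.3, 35.7 and 34.1 CPM with PB+RA. RA lay above all DMSO samples by a small step (log2 0.18 ± 0.12, adjusted p = 0.242), and PB+RA was split by replicate number. In replicates 1 and 2 alone PB+RA was below RA by 0.60 (adjusted p = 0.000221) and was called, while in replicates 3 and 4 alone the difference was -0.06 (adjusted p = 0.524). Over all samples it was -0.31 ± 0.12 (adjusted p = 0.0336), under the fold minimum.

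**Figure D4:**
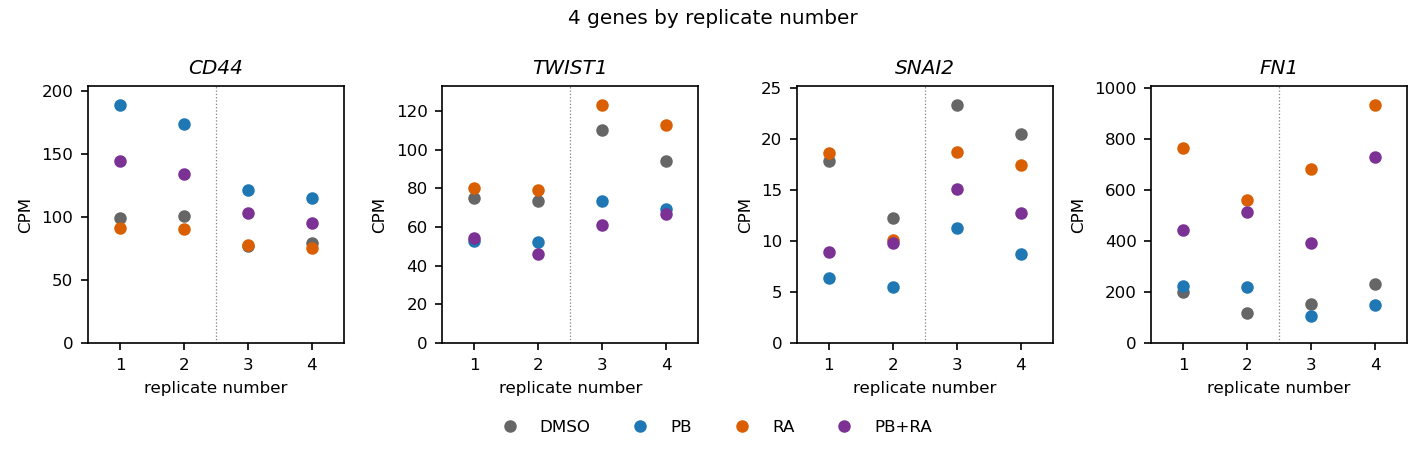
CPM (y axis, linear and from 0) of CD44, TWIST1, SNAI2 and FN1 by replicate number (x axis), with a colour for each group. In all 4 groups CD44 is higher and TWIST1 lower in replicates 1 and 2 than in replicates 3 and 4.

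Of 10 further factors of the epithelial to mesenchymal transition, 5 were tested. PB lowered 1 of them (11.3% of all genes tested), RA changed 0 in edgeR, DESeq2 or limma-voom (1 higher and 0 lower at an unadjusted p below 0.05), and PB+RA raised 1 and lowered 2 (24.0% and 17.9% of all genes). SNAI1, the paralogue of SNAI2, went the other way from it with PB+RA: it rose from 8.10 ± 1.58 CPM in DMSO to 15.5 ± 4.14 (log2 0.91 ± 0.19), with 9.19 ± 1.82 CPM for PB and 8.01 ± 1.04 for RA. TCF12, a class I helix-loop-helix partner of TWIST1, fell with PB+RA from 143 ± 13.2 to 84.9 ± 9.33 CPM (log2 -0.78). Its relatives TCF3 and TCF4 were at -0.49 and -0.48, under the fold minimum. PRRX2, the paralogue of PRRX1, was the gene lowered by PB and 1 of the 2 lowered by PB+RA, and was under 1 CPM in every group. TWIST2, the paralogue of TWIST1, had 1 read in all 16 samples.

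Against PB, the combination raised 3 of the 9 genes (FN1, YAP1 and WWTR1), where 9.02% of all genes tested were called higher. It lowered 0 of the 9, also at an unadjusted p below 0.05 and with DESeq2 or limma-voom, where 7.27% of all genes were called lower. Against RA it lowered 4 (VIM, YAP1, WWTR1 and TWIST1), where 14.1% of all genes were called lower. It raised 0 in edgeR, with 2 (ZEB1 and CD44) at an unadjusted p below 0.05, 1 with DESeq2 and 0 with limma-voom, and 14.9% of all genes were called higher. No interaction was called for the 9 genes in edgeR, DESeq2 or limma-voom, where 3.44% of all genes were called in either direction in edgeR. At an unadjusted p below 0.05 there were 0 in edgeR, and with DESeq2 SNAI2 was at 0.74 (unadjusted p = 0.0393, adjusted p = 0.225). With the replicate block 1 was called, SNAI2.

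Of 30 other factors of the mesenchymal state of neuroblastoma, 25 were tested. PB raised 6 and lowered 5 (16.9% and 11.3% of all genes tested), RA raised 11 (10.8%), and PB+RA raised 8 and lowered 3 (24.0% and 17.9%), with medians of -0.12, 0.63 and 0.14. NOTCH2, a receptor that can drive the mesenchymal state, rose with PB+RA from 0.959 ± 0.269 to 5.67 ± 3.84 CPM (log2 2.51). NOTCH1 fell from 2.69 ± 0.331 to 1.07 ± 0.370 CPM (log2 -1.35). EGR3, an immediate early factor, had the largest rise of the list (2.95), and ELK4, a partner of serum response factor, fell by 0.92.

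Of 27 further mesenchymal markers, 25 were tested. With PB 3 rose and 5 fell, where 16.9% of all genes tested were called higher and 11.3% lower. With RA 8 rose and 1 fell (10.8% and 2.54% of all genes), and with PB+RA 8 rose and 3 fell (24.0% and 17.9%). The medians of the 25 were 0.01, 0.37 and 0.25. ACTA2, smooth muscle actin, was at 18.5 ± 5.35 CPM in DMSO, 20.9 ± 8.63 with PB, 50.6 ± 15.4 with RA and 57.9 ± 18.8 with PB+RA, and like FN1 it was called higher in both groups given RA. Those calls were lost for RA in replicates 1 and 2 alone (1.48, adjusted p = 0.0901) and for PB+RA in replicates 3 and 4 alone (1.20, adjusted p = 0.0531). ANXA1 had the largest called rise with PB+RA among those at 1 CPM or more (log2 2.06). CDH11, a cadherin of mesenchyme, fell with PB+RA by 1.62 and S100A4 by 1.51. CAV1 was at 0.103 CPM or less as a group mean.

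Markers of 2 other cell types were read beside these genes, whose counts stand against all genes tested: PB called 16.9% higher and 11.3% lower, RA 10.8% higher and 2.54% lower, and PB+RA 24.0% higher and 17.9% lower. Of 10 fibroblast markers, 8 were tested, of which 4 rose and 1 fell with RA, 3 rose and 1 fell with PB+RA, and 1 rose with PB. Their summed level ranged from 651 to 733 CPM in DMSO, 697 to 851 with RA, 820.3 to 895 with PB and 771 to 818 with PB+RA. The median log2 change of the 8 was 0.97 with RA, -0.12 with PB and 0.29 with PB+RA, so with PB the sum and the median differed in direction. COL1A2 was at 0.179 CPM or less as a group mean and FAP at 0.0966 CPM or less, while COL3A1 rose with RA by 2.12. LUM was the gene called higher with PB, and it was also the gene called lower with RA and with PB+RA. Of 10 Schwann cell markers, 6 were tested, of which 3 rose and 1 fell with PB, 2 rose and 1 fell with RA, and 3 rose and 2 fell with PB+RA. Their summed level ranged from 37.8 to 58.7 CPM in DMSO, 45.7 to 72.4 with RA, 57.1 to 78.1 with PB and 63.7 to 77.4 with PB+RA. SOX10 had 1 read in all 16 samples, and MBP was at 0.0411 CPM or less as a group mean. The part of these markers in the changes of the 9 genes was not tested.

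Genes of the adrenergic and epithelial states were read as well, against the same shares of all genes. All 18 adrenergic genes were tested. With PB 8 rose and 1 fell, with RA 3 rose and 3 fell, and with PB+RA 8 rose and 2 fell. TH, the enzyme that makes the catecholamine precursor, rose with PB+RA from 85.9 ± 12.96 to 323 ± 71.6 CPM. Of 18 epithelial genes 10 were tested, of which 1 rose and 3 fell with PB, 4 rose and 1 fell with RA, and 3 rose with PB+RA. EPCAM rose with PB+RA from 0.280 ± 0.0897 to 2.87 ± 0.218 CPM and KRT18 from 9.37 ± 1.59 to 34.8 ± 13.4 CPM. CDH1, the E-cadherin gene that SNAI2 and the ZEB factors repress in epithelia, had 4 reads in all 16 samples.

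Some genes followed the 9 closely across the 16 samples, which share groups and replicate numbers, so the values are descriptions. Over 13457 genes compared, the highest Pearson correlation with FN1 was that of NUAK1 (0.972) and then CEMIP2 (0.964), a hyaluronidase. With VIM it was TGIF2 (0.981), with TWIST1 CNN3 (0.981), with SNAI2 C1R (0.941), with YAP1 LOXL2 (0.932) and with WWTR1 IFITM2 (0.968). With ZEB1 it was SCRN3 (0.973), with ZEB2 RALA (0.896) and with CD44 MRPS25 (0.972). Among the 9 themselves YAP1 and WWTR1 had a correlation of 0.83, VIM and TWIST1 0.84, and CD44 and SNAI2 -0.90.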

How the data were processed

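RNA-seq was measured in 16 samples of SK-N-BE(2)C cells, 4 replicates each of DMSO, PB, RA and PB+RA, grouped by the sample titles. Per the labels and the study's methods, the authors selected polyadenylated RNA, made directional paired-end libraries, trimmed the reads with Trim Galore 0.6.4 and aligned them with STAR (2.6.1d in the submitters' processing notes) to hg19. The deposited counts are STAR's reads per gene, with no normalization, and the deposited CPM were made by the authors by dividing each count by its sample's total. The annotation release and the strand setting are not given in the sources used here, so a gene that overlaps another on the opposite strand is uncertain. The authors' table of comparisons holds log2 fold changes and adjusted p-values from DESeq2 1.32.0 and was not used.

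Counts were tested in R 4.3.3 with edgeR 4.0.16 (filterByExpr, 15415 genes; TMM factors from 0.983 to 1.02; 1 robust quasi-likelihood fit of all 16 samples with a coefficient per group). The members and gene lists were chosen with earlier results of these data known. Each SE was derived as the size of the log2 change over the square root of its F statistic. Counts per list were read without a set test. Named genes were the 10 members, the 2 largest called rises and falls with PB+RA in each list at 1 CPM or more, every gene at 1 CPM or more of 4 short lists, opposite-strand genes and the genes most correlated with each member; CCN2, ITGA5, SDC4, MSN, EZR, RDX, CAV1, FAP, COL1A2, SOX10, MBP, PRRX2, TWIST2, F3 and CDH1 were named after their values were seen. Some listed genes are not reported here by name. Same-numbered samples were checked for shared deviations from their group means (lowest r 0.330). Alternatives were RLE size factors, DESeq2 1.42.0, limma-voom (limma 3.58.1), other filters and fold minimums, a replicate block, a GC and length correction (known for 95.2% of genes), the compared groups alone, replicates 1 and 2 or 3 and 4 alone and each sample left out. The fits were tested on simulated data. Gene positions and exon lengths are from GENCODE on GRCh37, and promoter windows from RefSeq on GRCh38.p14.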

Additional observations from a re-analysis of the deposited data

Results flagged for a closer look

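In 36 sets of 4 replicates (9 genes in 4 groups), 3 had a replicate far from the other 3 by Dixon's test, and chance flags about 1 in 20 such sets. SNAI2 was at 10.1 CPM in RA replicate 2, below the other 3 RA samples (17.5 to 18.8 CPM). YAP1 was at 0.362 CPM in PB replicate 4, which rests on 8 reads, below the other PB samples (0.601 to 0.629 CPM). YAP1 was at 1.29 CPM in PB+RA replicate 3, below the other PB+RA samples (1.54 to 1.55 CPM). The fall of YAP1 with PB stayed called against DMSO without PB replicate 4. SNAI2 with RA and YAP1 with PB+RA were not called against DMSO over all samples, so they had no call to lose. Without RA replicate 2, SNAI2 with PB+RA became called below RA (log2 -0.67, edgeR adjusted p = 0.0323).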

How the results depend on the processing

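Of 1197 values for the 9 genes under the alternatives, 1112 kept their direction and their side of the threshold, 41 lost the call, 29 gained it and 15 changed sign. None of the 15 was called over all samples. With the replicate block, SNAI2 was called for PB+RA against PB and for the interaction, so that 1 of the 9 interactions was called (also 1 with the GC and length correction and the block, and 1 in replicates 3 and 4 alone), and no other call of the 9 changed with the block alone. The PB count of 6 genes became 3 in replicates 1 and 2 alone and 2 at a log2 minimum of 1. The PB+RA count against DMSO of 4 became 2 and 1, and the PB+RA count against RA of 4 became 7 with no fold minimum and 2 at a minimum of 1. With single samples left out, the counts ranged from 4 to 6 for PB, 3 to 3 for RA, 2 to 4 for PB+RA, 2 to 3 against PB, 4 to 6 against RA and 0 to 0 for the interaction. Sign changes for FN1 with PB were 0.0082 with the block and 0.46 in replicates 1 and 2, with -0.15 to 0.15 when single samples were left out. For PB+RA against DMSO they were YAP1 (-0.20 in replicates 3 and 4, and -0.048 to 0.36 with single samples left out, negative without DMSO replicate 1) and ZEB2 (0.095 in replicates 3 and 4). Against PB they were ZEB1 (0.029) and ZEB2 (0.096) in replicates 3 and 4, and with single samples left out VIM (-0.048 to 0.14) and ZEB2 (-0.19 to 0.041). In the interaction they were FN1 (0.073) and ZEB1 (0.023) in replicates 3 and 4. The cause was not tested. Over all genes, called counts of 4352 (PB), 2053 (RA), 6455 (PB+RA), 2511 (against PB), 4469 (against RA) and 530 (interaction) became 8269, 5420, 10189, 5877, 8391 and 816 with no fold minimum and 1686, 914, 3120, 1058, 1776 and 169 at a minimum of 1. The interaction count was 1171 with the block and 1187 with the GC correction added. YAP1 rested on 8 to 14 reads with PB, so counting error limits its precision there.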

Other observations

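Of 12 neural crest genes, 7 were tested. With PB 2 rose and 1 fell (16.9% and 11.3% of all genes tested), and with RA 3 rose and 1 fell (10.8% and 2.54%). With PB+RA 2 rose and 2 fell (24.0% and 17.9%), with a median log2 change of -0.08. SOX8, a SOX factor of the neural crest, was at 0.974 ± 0.348 CPM in DMSO (SD, n = 4), 3.72 ± 1.25 with PB, 4.80 ± 1.57 with RA and 26.9 ± 11.0 with PB+RA. Its log2 change with PB+RA was 4.76 ± 0.38 (SE, adjusted p = 2.75e-08 in edgeR), and the interaction of 0.53 ± 0.52 was not called. NGFR, the low-affinity neurotrophin receptor, rose with PB+RA by 2.57 ± 0.35, from 100.4 ± 31.4 to 607 ± 215 CPM. LMO4 fell by 1.00 and MSX1 by 0.66. The values are given without an explanation.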
